A study of Mus musculus with 12 samples.

Results

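The genes described here encode the pore-forming subunits of the AMPA and kainate classes of glutamate receptor: Gria1, Gria2, Gria3 and Gria4 for AMPA receptors, and Grik1, Grik2, Grik3, Grik4 and Grik5 for kainate receptors. They were taken by symbol, and all 9 were found among the 44760 genes that the tables of both ages share. The study measured RNA in the hippocampus of male APPswe/PS1dE9 (APP/PS1) mice on a C57BL/6 background (N9B6). These transgenic mice overexpress amyloid precursor protein with the Swedish mutation and a presenilin 1 lacking exon 9, and they serve as a model of amyloid deposition in Alzheimer's disease. Each mouse carried an osmotic mini pump under the skin for 14 days, which released saline or nicotine hydrogen tartrate at a labelled rate of 48 mg/kg/h. Mice were labelled 7 or 18 months old, which gave 4 groups of 3 libraries, named here by age and infusion (7-month or 18-month, saline or nicotine). All 4 groups carry the transgenes, so each comparison is between transgenic mice and none is with wild-type mice.

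AMPA receptors are tetramers that carry most fast excitatory transmission in the hippocampus. GluA1 and GluA2, the products of Gria1 and Gria2, are their main subunits in pyramidal cells, and edited GluA2 makes the channel nearly impermeable to calcium. Kainate receptors are related tetramers in which the subunits encoded by Grik1, Grik2 and Grik3 can form channels alone, while the high-affinity subunits encoded by Grik4 and Grik5 need one of those as a partner. Grik4 is known for its place at the mossy fibre synapses of CA3, and Grik1 for its expression in interneurons.

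The libraries held 25071195 to 29245972 counts at 7 months and 21260068 to 23715015 at 18 months. Markers of neurons, glia and each hippocampal field were present in every library, with the summed neuronal markers between 3765 and 4943 CPM, the count of a gene scaled to the size of its library. Each age lies in its own table, and the share of counts in genes whose longest transcript exceeds 5000 nt also separates the ages. It was 23.21% to 24.14% in 5 of the 6 libraries of 7 months and 36.04% to 36.94% in the 6 of 18 months. The 7-month saline library 2 stood apart from its group at 32.52%. Any effect of age and any difference in preparation between the tables cannot be told apart. The 7-month nicotine library 1 also stood apart, with choroid plexus markers at 6114 CPM in sum and pituitary markers at 171.7 CPM. Ttr, the main choroid plexus transcript, was also high in 7-month saline library 3 (1528 CPM) and 18-month nicotine library 1 (1397 CPM), against 2.36 to 405.1 CPM in the other 9 libraries. Nothing in the labels says that libraries of a group came from separate animals, so p-values measure the spread between these libraries, which may be technical.

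Gria1 was the most abundant subunit gene per transcript length in all 4 groups. CPM were divided by the length of the longest transcript in kb, so that genes could be compared with each other. In 7-month saline libraries Gria1 stood at 161.2 ± 19.1 CPM per kb (SD, n = 3), Grik5 at 74.8 ± 10.03, Gria2 at 58.6 ± 20.1 and Gria3 at 35.1 ± 5.10. The other 5 genes lay between 3.18 (Grik1) and 9.01 (Grik4) CPM per kb. Grik5 and Gria2 overlapped between libraries in that group, so their order was not resolved. Gria2 has the longest transcript of the 9, at 10371 nt, and divided by the mean length of each gene's transcripts Gria2 (146.5) and Grik5 (150.0) were level. In 18-month saline libraries the order began with Gria1 at 192.1 ± 13.7, then Gria2 at 82.4 ± 3.19 and Grik5 at 79.5 ± 7.73, which again overlapped, and Gria3 at 39.5 ± 1.27. The lowest was again Grik1, at 2.77 ± 0.247 CPM per kb. In the 18-month nicotine group Grik3 stood at 6.38 ± 0.132 and Grik2 at 5.88 ± 0.326 by the longest transcript, but at 6.38 and 18.6 by the mean transcript length, so their order depended on the length used.

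**Figure D1:**
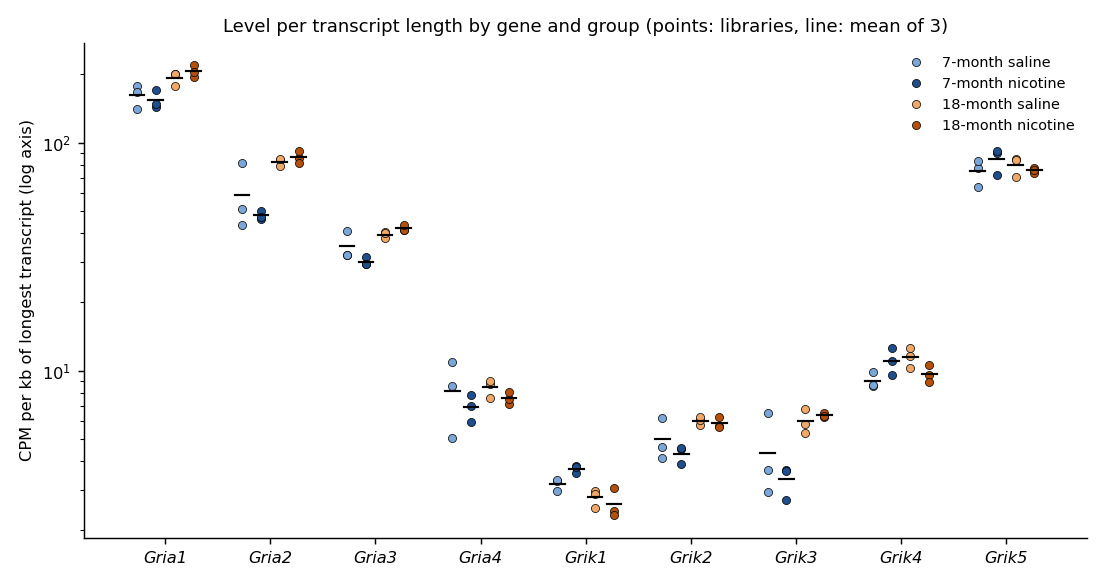
Level of each subunit gene in CPM per kb of its longest transcript, on a log axis, with 1 point per library and a line at the mean of the 3 libraries of each group. Gria1 lies above the other genes in every group (means of 153.5 to 205.5), and Gria4, Grik1, Grik2, Grik3 and Grik4 lie about 1 power of 10 or more below it.

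Within its family, Gria1 made up 59.5% to 64.4% of the summed AMPA subunit level per kb (group means), Gria2 20.1% to 25.6%, Gria3 12.3% to 13.4% and Gria4 2.22% to 3.09%. Among kainate subunits Grik5 alone made up 75.1% to 79.0% and Grik4 9.41% to 10.8%. The channel-forming Grik1, Grik2 and Grik3 each made up at most 6.37% in any group. Without division by length, the share of Gria2 in the AMPA counts was larger, 32.3% to 39.4%. In the kainate counts Grik5 then made up 63.1% to 69.6%, Grik2 up to 11.4% and Grik3 up to 11.8%. The ratio of Gria1 to Gria2 counts, which bears on subunit makeup only at the level of RNA, was 1.73, 1.17 and 1.74 in 7-month saline libraries 1 to 3 and 1.65, 1.82 and 1.67 in those of 7-month nicotine. At 18 months it was 1.27, 1.197 and 1.26 under saline and 1.37, 1.27 and 1.19 under nicotine. The ratio in 7-month saline library 2 was therefore below every other library of both ages, and the remaining 5 libraries of 7 months lay above all 6 of 18 months. The longest transcript has 5546 nt in Gria1 and 10371 nt in Gria2. Between the ages under saline the log2 fold changes were 0.25 (Gria1) and 0.49 (Gria2). With the correction for transcript length and GC content described below, both were -0.025. The corrected values under nicotine are also given below. The part of transcript length in this ratio was not tested.

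The first question was whether nicotine moved any of these genes. None of the 9 passed an adjusted p of 0.05 at either age, in the mean over both ages or in the difference between ages (edgeR quasi-likelihood test, Benjamini-Hochberg adjustment over all genes). Few genes passed anywhere: 0.0114% of 17596 tested genes at 7 months, 0.044% of 18196 at 18 months, 0.0365% of 19171 for the mean of both ages and 0.00522% for the difference between ages. At an unadjusted p under 0.05 the count of subunit genes was 0 at 7 months, 1 at 18 months, 0 over both ages and 2 for the difference. Over all tested genes that limit was passed by 1144 of 17596, 1225 of 18196, 1316 of 19171 and 1504 of 19171. DESeq2 called 0 of 9 in each of the 4 comparisons. The values of the members follow, in CPM and in library order 1, 2, 3, and log2 fold changes are nicotine minus saline.

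Gria1, which encodes the subunit most tied to activity-dependent insertion of receptors at synapses, stood at 777.3, 984.8 and 919.9 CPM in 7-month saline libraries and at 790.0, 944.8 and 818.4 in 7-month nicotine libraries. The 18-month values were 1110.0, 977.8 and 1108 under saline and 1210.0, 1073 and 1136 under nicotine. The groups overlapped at both ages. The log2 fold change was -0.09 at 7 months (95% interval -0.40 to 0.23) and 0.08 at 18 months (-0.07 to 0.24).

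Gria2 encodes the subunit that sets calcium permeability. It stood at 448.8, 844.1 and 529.5 CPM in 7-month saline libraries and at 479.8, 519.3 and 490.1 in 7-month nicotine libraries. Library 2 of the saline group alone was far above the rest of that age, and the other libraries of both groups were intermixed. The log2 fold change at 7 months was -0.31 (-0.85 to 0.23), and without that library it was 0.02 (-0.19 to 0.24). At 18 months the values were 872.1, 816.9 and 876.0 CPM under saline and 885.5, 842.8 and 955.2 under nicotine, a log2 fold change of 0.05 (-0.09 to 0.19) with overlapping groups.

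Gria3, an AMPA subunit gene on the X chromosome, stood at 167.5, 213.3 and 167.1 CPM under saline and 151.9, 163.3 and 151.9 under nicotine at 7 months. The 18-month values were 210.0, 197.9 and 208.8 CPM under saline and 215.3, 214.2 and 227.1 under nicotine. The nicotine libraries lay below all saline libraries at 7 months and above all of them at 18 months. Groups did not overlap for 17.4% of tested genes at 7 months and for 11.8% at 18 months, so a gap at 1 age was common. The share of genes with gaps of opposite direction at both ages was not counted. The log2 fold change was -0.25 at 7 months (SE 0.13, adjusted p = 0.656), or -0.10 without saline library 2 (adjusted p = 0.696), and 0.08 at 18 months (SE 0.05, adjusted p = 0.851). The difference between the ages was 0.32 (SE 0.13, unadjusted p = 0.0331, adjusted p = 0.623). Without the 7-month saline library 2 the difference was 0.18 (SE 0.07, adjusted p = 0.515).

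Gria4, which in the adult hippocampus is known mostly from interneurons, was the least abundant AMPA subunit gene. It stood at 46.4, 59.1 and 27.4 CPM in 7-month saline libraries, the widest relative spread of any AMPA subunit gene in that group, and at 38.1, 32.2 and 42.6 in 7-month nicotine libraries. In the older mice Gria4 stood at 41.2, 47.6 and 49.0 CPM under saline and 38.7, 41.0 and 43.7 under nicotine. The groups overlapped at both ages, with log2 fold changes of -0.25 (-0.88 to 0.37) and -0.17 (-0.36 to 0.01).

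**Figure D2:**
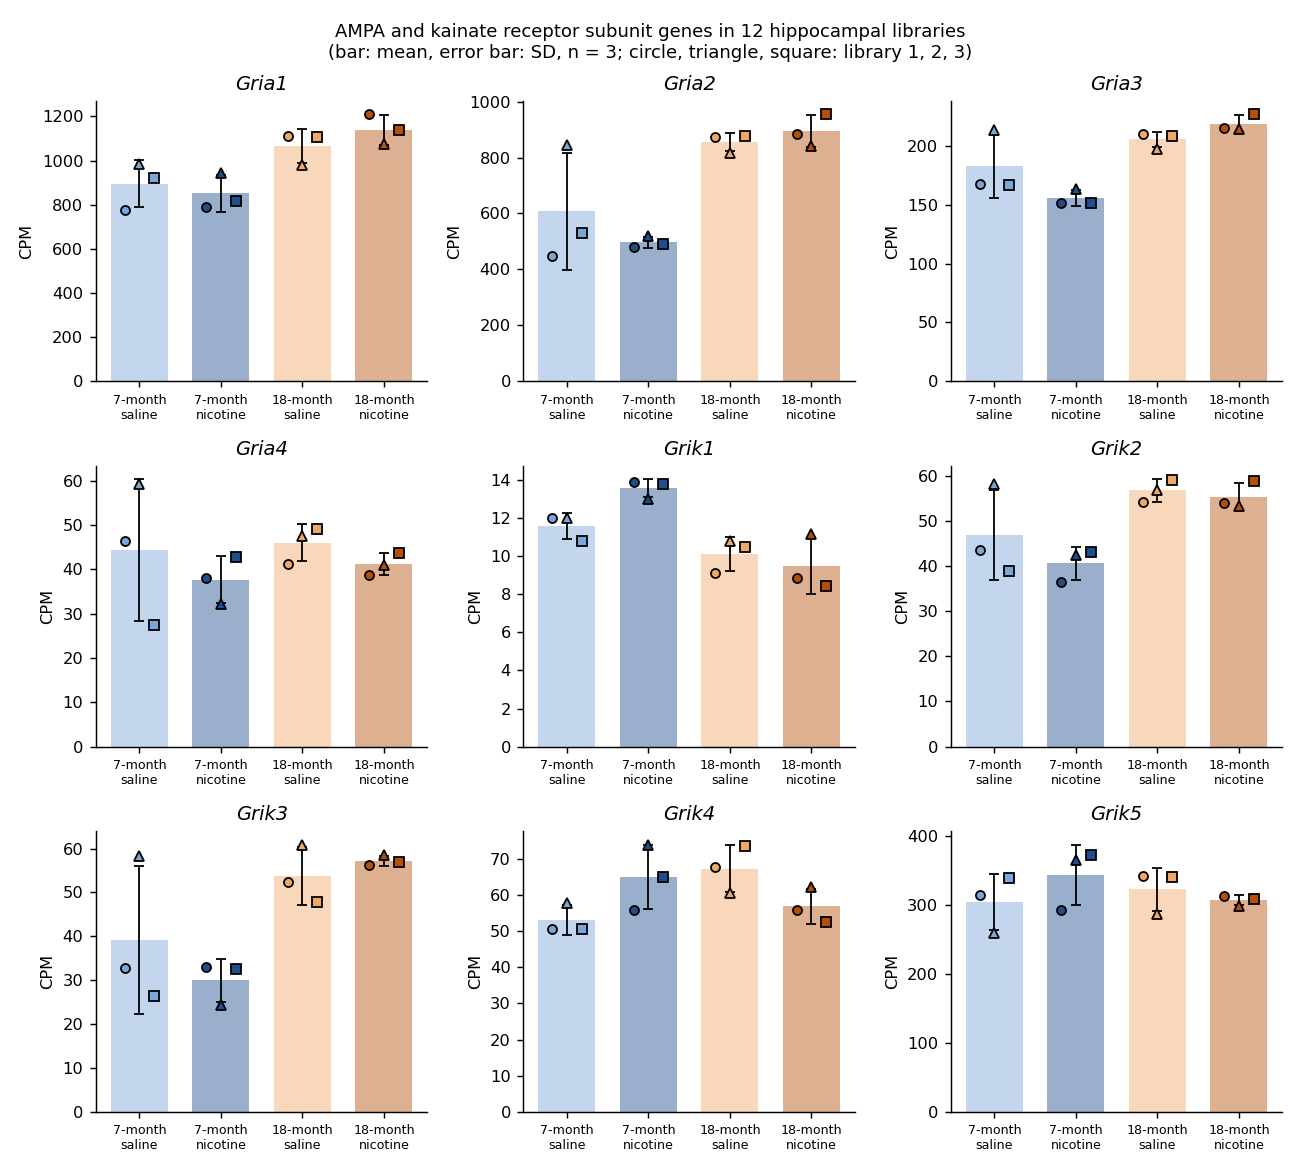
CPM of the 9 subunit genes, 1 panel per gene with its own axis from 0, for the 4 groups of 3 libraries. Bars are means, error bars are SD, and circles, triangles and squares are libraries 1, 2 and 3. In Gria1, Gria2, Gria3, Gria4, Grik2 and Grik3 the triangle of 7-month saline lies above the other 5 libraries of that age, and in Grik5 it lies below them.

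Grik4 was the kainate subunit gene with the smallest unadjusted p for nicotine. It encodes a high-affinity subunit that forms channels only with Grik1, Grik2 or Grik3 products. It stood at 50.5, 57.9 and 50.7 CPM under saline and 56.0, 74.0 and 65.1 under nicotine at 7 months. At 18 months it stood at 67.9, 60.7 and 73.6 CPM under saline and 56.0, 62.2 and 52.6 under nicotine. The groups overlapped at both ages, with nicotine means above saline at 7 months and below saline at 18 months. The log2 fold change was 0.28 at 7 months (SE 0.13, 95% interval -0.03 to 0.59, adjusted p = 0.656) and -0.26 at 18 months (SE 0.08, -0.44 to -0.07, unadjusted p = 0.0119, adjusted p = 0.613). The difference between the ages was -0.54 (SE 0.16, -0.89 to -0.18, unadjusted p = 0.00625, adjusted p = 0.601). Neither value passed the threshold.

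Since Grik4 is known from CA3 and its mossy fibre input, markers of those cells were read beside it. At 18 months the 5 CA3 markers summed to 265.8 to 322.4 CPM under saline and 260.9 to 288.5 under nicotine. The 5 dentate granule cell markers summed to 278.7 to 284.6 CPM under saline and 236.4 to 479.7 under nicotine, and none of the 10 markers passed the test. Dsp, a desmosome gene that marks granule cells, stood at 80.7, 68.4 and 68.7 CPM under saline and at 117.9, 38.1 and 158.5 under nicotine. The nicotine library with the lowest Dsp, library 2, had the highest Grik4 of its group. The part of dissection in the Grik4 value was not tested. In tissue RNA, fewer cells of a type and less RNA per cell cannot be told apart.

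Grik5, the other high-affinity subunit gene and the most abundant of the kainate family, stood at 313.8, 259.0 and 338.6 CPM under saline and 293.4, 365.4 and 372.6 under nicotine at 7 months. In the older mice Grik5 stood at 342.1, 286.7 and 340.0 CPM under saline and 313.1, 299.0 and 308.4 under nicotine. The groups overlapped, with log2 fold changes of 0.17 (-0.16 to 0.49) and -0.09 (-0.24 to 0.07).

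Among the genes whose products form kainate channels by themselves, Grik1 had the lowest CPM in each group. Per kb it was lowest in 3 groups, and in 7-month nicotine libraries Grik3 (3.34) was below it (3.72). Grik1 stood at 12.0, 12.0 and 10.8 CPM under saline and 13.9, 13.0 and 13.8 under nicotine at 7 months, with no overlap between the groups. At 18 months it stood at 9.1, 10.8 and 10.5 CPM under saline and 8.9, 11.2 and 8.5 under nicotine, with overlap. The log2 fold change was 0.21 (SE 0.12, adjusted p = 0.656) and -0.11 (SE 0.13, adjusted p = 0.928). The 6 interneuron markers summed to 606.0 to 667.4 CPM in 7-month saline and 651.7 to 761.3 in 7-month nicotine libraries, and 4 of the 6 had a positive log2 fold change. Their part in the Grik1 value was not tested.

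Grik2, a main channel-forming kainate subunit gene of pyramidal and granule cells, stood at 43.6, 58.3 and 39.1 CPM under saline and 36.5, 42.5 and 43.1 under nicotine at 7 months. The 18-month values were 54.3, 57.0 and 59.2 CPM under saline and 54.0, 53.3 and 58.9 under nicotine. Nicotine and saline overlapped at both ages, with log2 fold changes of -0.22 (-0.63 to 0.18) and -0.05 (-0.19 to 0.09). Without 7-month saline library 2 the first was -0.02 (-0.25 to 0.21).

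Grik3, which encodes a subunit of low glutamate affinity, stood at 32.8, 58.2 and 26.3 CPM under saline and 32.9, 24.3 and 32.6 under nicotine at 7 months. Saline library 2 again held the highest value, and the others were intermixed. The log2 fold change was -0.41 (-1.10 to 0.29), and 0.02 (-0.36 to 0.40) without that library. At 18 months Grik3 stood at 52.5, 60.9 and 47.8 CPM under saline and 56.2, 58.5 and 56.9 under nicotine, a log2 fold change of 0.07 (-0.12 to 0.27) with the nicotine values inside the saline range.

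**Figure D3:**
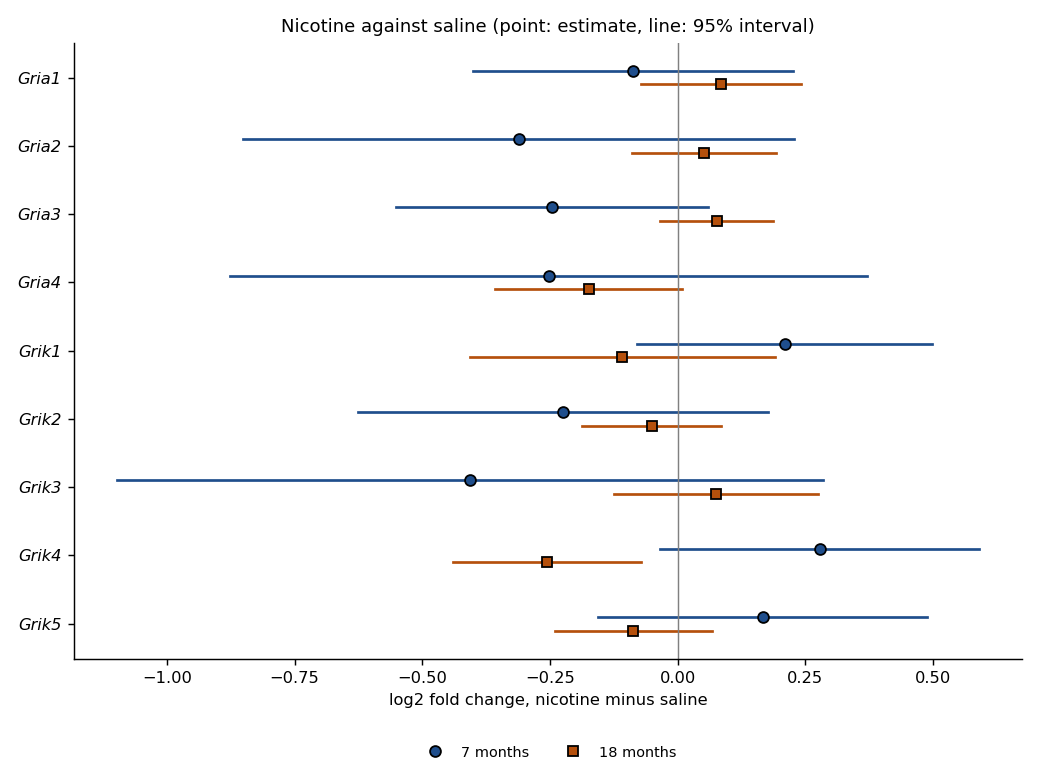
Log2 fold change of nicotine against saline for each subunit gene at 7 months (circles) and 18 months (squares), with 95% intervals from the edgeR fit of each age. All intervals but that of Grik4 at 18 months (-0.44 to -0.07) include 0, and those at 18 months are narrower for 8 of the 9 genes, all but Grik1.

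The width of these intervals sets what the comparison could show. At 18 months the intervals of all 9 genes lay between -0.44 and 0.27 on the log2 scale, while at 7 months that of Grik3 reached -1.10. The common dispersion, the squared coefficient of variation between libraries beyond counting error, was 0.0417 at 7 months and 0.00956 at 18 months. The 7-month value was 0.0211 without 7-month saline library 2, and 0.014 without that library and 7-month nicotine library 1. The median log2 fold change of the 4 AMPA subunit genes was -0.25 at 7 months and 0.06 at 18 months, and that of the 5 kainate subunit genes 0.17 and -0.09. The median of all tested genes was -0.01 and 0.00. Without 7-month saline library 2, the 7-month values of Gria1 to Gria4 were 0.005, 0.02, -0.10 and 0.03. Those of Grik1 to Grik5 were then 0.25, -0.02, 0.02, 0.36 and 0.08.

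The proteins that assemble, anchor and modify these receptors were read from 4 lists, and the other ionotropic glutamate receptor subunits from another. None of the 19 measured AMPA receptor auxiliary and assembly genes, 4 kainate receptor auxiliary and organizing genes, 20 scaffold and trafficking genes, 12 phosphorylation and RNA editing genes and 9 other ionotropic subunit genes passed in any of the 4 nicotine comparisons. DESeq2 also called 0 of each list, though it gave no adjusted p for Grin2b in the fits of all 12 libraries. At an unadjusted p under 0.05 the counts at 7 months were 3, 0, 1, 0 and 1 in that order, and at 18 months 2, 3, 0, 0 and 0. The counts over all genes at that limit were the 1144 of 17596 and 1225 of 18196 given above.

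The smallest p-values in each list belonged to a few genes. Among kainate receptor partners at 18 months they were C1ql2, a secreted organizer of kainate receptors at mossy fibre synapses, at 51.9 ± 4.28 CPM under saline and 70.8 ± 16.1 under nicotine (log2 fold change 0.43, unadjusted p = 0.014, adjusted p = 0.618), and Neto1, an auxiliary subunit of kainate receptors, at 180.2 ± 23.3 and 148.1 ± 17.0 CPM (log2 fold change -0.30, unadjusted p = 0.0186, adjusted p = 0.649). C1ql2 is also 1 of the 5 dentate markers, all of which had positive log2 fold changes there. Among AMPA receptor partners at 18 months Olfm3, a secreted protein that binds the receptor complex, stood at 7.88 ± 0.234 and 10.2 ± 0.586 CPM (log2 fold change 0.36, adjusted p = 0.519). At 7 months Gsg1l, which encodes a negative auxiliary subunit, stood at 42.7 ± 4.54 and 31.3 ± 5.90 CPM (log2 fold change -0.46, adjusted p = 0.656). Frrs1l, an assembly factor of the endoplasmic reticulum, stood at 27.1, 154.2 and 34.4 CPM in 7-month saline and 26.3, 24.4 and 23.8 in 7-month nicotine libraries. Its log2 fold change was -1.56 (adjusted p = 0.656), and saline library 2, the one with the high share of long transcripts, was alone in being high.

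The second question was how the subunit genes differ between 7 and 18 months. Under nicotine 6 of 9 passed. Gria1, Gria2, Gria3, Grik2 and Grik3 were higher at 18 months and Grik1 was lower. Under saline 2 of 9 passed, Gria2 and Grik4, both higher at 18 months. These counts must be read against the whole table, in which 59.3% of 19171 tested genes passed under nicotine (29.5% higher and 29.8% lower) and 46.1% under saline (21.5% higher and 24.6% lower). The count under nicotine was thus near the share of all genes, and the count under saline was below it.

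Under nicotine, Gria2 was at 496.4 ± 20.5 CPM at 7 months and 894.5 ± 56.7 at 18 months, with no overlap (log2 fold change 0.85, SE 0.18, adjusted p = 0.00151). Grik3 was at 29.9 ± 4.90 and 57.2 ± 1.19 CPM, also with no overlap (0.93, SE 0.23, adjusted p = 0.00457). Gria1, Gria3 and Grik2 differed by less, with log2 fold changes of 0.42, 0.49 and 0.45, and their libraries did not overlap either. Grik1 was at 13.6 ± 0.473 and 9.50 ± 1.48 CPM (-0.52, SE 0.12, adjusted p = 0.00361), again with no overlap. Gria4 (0.13), Grik4 (-0.19) and Grik5 (-0.16) did not pass. The share of all genes without overlap between the ages was not counted. With 59.3% of tested genes passing under nicotine, such gaps are not read as particular to these members.

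Under saline, Gria2 was at 607.5 ± 208.9 CPM at 7 months and 855.0 ± 33.0 at 18 months (log2 fold change 0.49, SE 0.18, adjusted p = 0.0378), with 7-month library 2 inside the 18-month range. Grik4 was at 53.1 ± 4.20 and 67.4 ± 6.47 CPM with no overlap (0.34, SE 0.11, adjusted p = 0.0279). Grik1 also did not overlap, at 10.84 to 12.04 CPM at 7 months and 9.115 to 10.8 at 18 months, but did not pass (adjusted p = 0.211). The 4 kainate subunit genes other than Grik4 and the 3 AMPA subunit genes other than Gria2 had log2 fold changes between -0.20 (Grik1) and 0.46 (Grik3). The call on these genes depended on single libraries. Without the 7-month saline library 2, 6 of 9 passed (Gria1, Gria2, Gria3, Grik2, Grik3 and Grik4, all higher at 18 months), when 60.4% of all genes passed. The log2 fold changes were then 0.83 in Gria2, 0.89 in Grik3, 0.49 in Grik2, 0.32 in Gria3 and 0.35 in Gria4, each over 1.5 times its value with that library. Without 7-month saline library 1 or 3, or 18-month saline library 1 or 3, 0 of 9 passed. Of all tested genes, 6251 of 19552 and 6513 of 19537 then passed in the 7-month settings. For the 18-month settings it was 7260 of 19735 and 6749 of 19624, against 8844 of 19171 with every library. In those 2 settings of the 7-month group, library 2 was one of only 2 saline libraries left.

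The calls for age also changed with a correction for transcript length and GC content together. When each library was given offsets from a regression on transcript length and GC content, 0 of 9 passed under saline, where 34.5% of 16200 genes did. Under nicotine 3 of 9 passed, where 45.6% did, and all 3 were lower at 18 months: Grik1 (log2 fold change -0.55, adjusted p = 0.00223), Grik2 (-0.45, adjusted p = 0.00281) and Grik4 (-0.61, adjusted p = 0.000579). Of these Grik1 alone was called with the same direction without offsets. The sign of Grik2 turned, and Grik4 did not pass without offsets. Gria2 went from 0.85 to -0.12 (SE 0.08, adjusted p = 0.239) under nicotine and from 0.49 to -0.03 (SE 0.08, adjusted p = 0.83) under saline. Grik3 went from 0.93 to 0.21 (adjusted p = 0.324) under nicotine. The markers of interneurons, in which Grik1 is known to be expressed, summed to 606.0 to 761.3 CPM at 7 months and 479.0 to 520.5 at 18 months, without offsets. They did not all go the same way. Sst, Pvalb and Vip were lower in every 18-month library than in any 7-month library. Gad1 and Slc32a1 overlapped, as did Gad2 (68.8 to 133.8 CPM at 7 months and 95.8 to 114.4 at 18 months). The part of these markers in the Grik1 value was not tested.

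**Figure D4:**
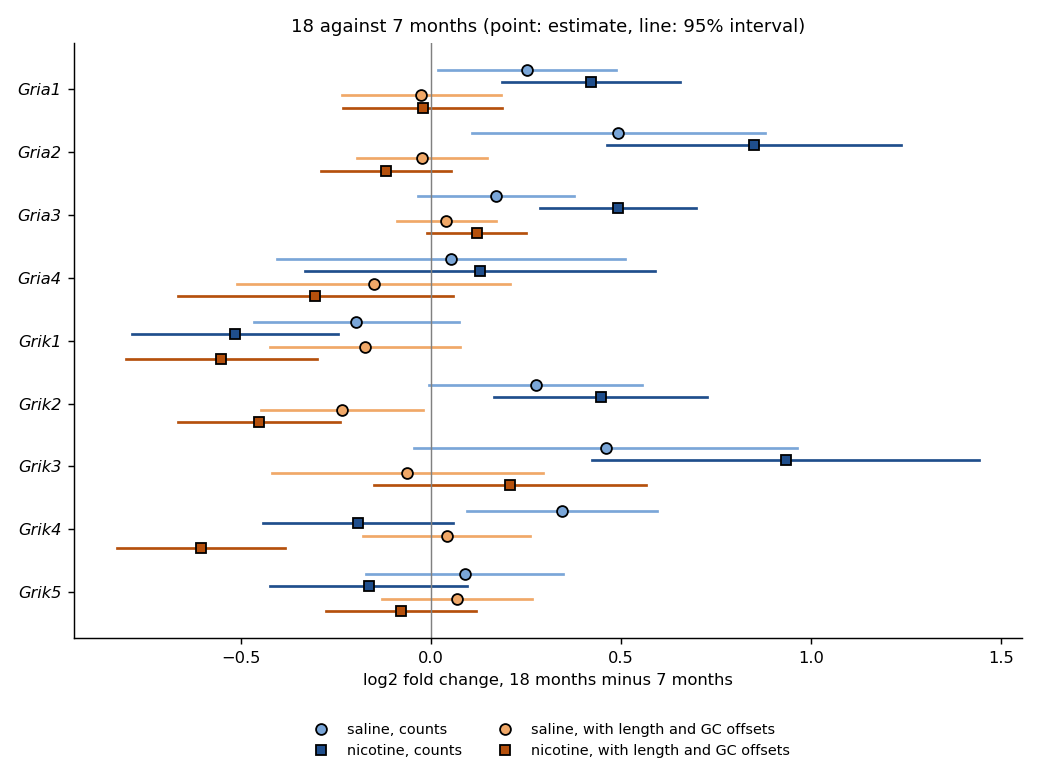
Log2 fold change of 18 against 7 months under saline (circles) and nicotine (squares), from counts (blue) and with offsets for transcript length and GC content (orange), with 95% intervals. With offsets Gria1 and Gria2 move to between -0.12 and -0.02, and Grik1 under nicotine stays at -0.55 against -0.52 without them.

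**Figure D5:**
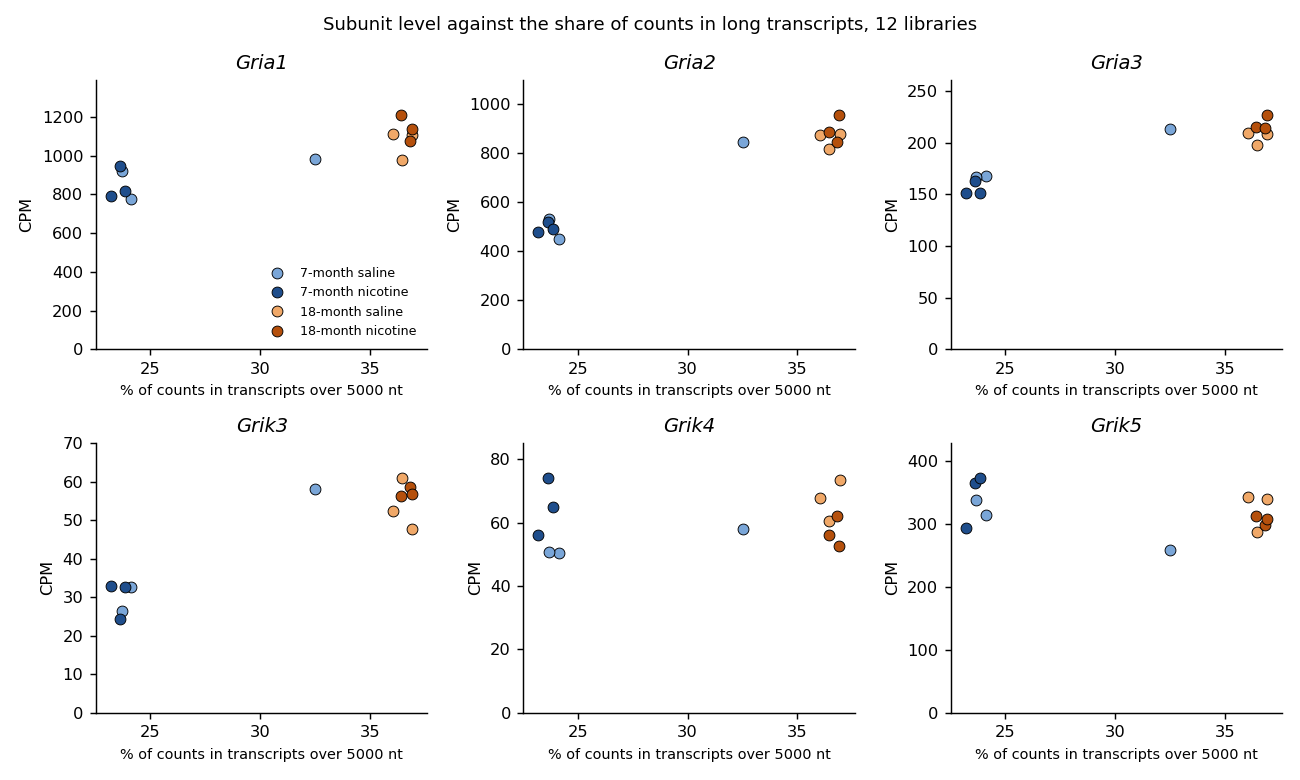
CPM of 6 subunit genes (vertical axes from 0) against the percentage of a library's counts in transcripts over 5000 nt, 1 point per library, coloured by group. The 7-month saline library at 32.52% lies near the 18-month libraries for Gria2 (844.1 CPM), Gria3 (213.3 CPM) and Grik3 (58.2 CPM), while Grik4 and Grik5 show no such separation of the ages.

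The plot of level against long-transcript share shows where single libraries lay. In Gria2, Gria3 and Grik3 the 7-month saline library 2 lay within or above the range of the 18-month saline libraries, although its label gives 7 months. The other 5 libraries of 7 months lay below that range in Gria2, Gria3 and Grik3. Grik2 in that library (58.3 CPM) also lay within it (54.3 to 59.2), and Gria1 (984.8 CPM) at its lower edge (977.8 to 1110.0). Grik5 was lower in that library (259.0 CPM) than in every other library of either age. Gria2 (10371 nt), Grik2 (9427 nt) and Grik3 (8973 nt) have the longest transcripts of the members, and each was highest of its age in that library. Gria1, Gria3 and Gria4, of 5206 to 5546 nt, were also highest of their age there, and Grik4 (5887 nt) was not. Grik5 and Grik1 have the shortest (4061 and 3655 nt). Grik1 stood at 12.0 CPM in that library, against 12.0 and 10.8 in the other 7-month saline libraries. The part of transcript length in these values was not tested.

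Some partners differed between the ages with and without the offsets. Their counts are to be read against the share of all genes that passed, 46.1% under saline and 59.3% under nicotine from counts, and 34.5% and 45.6% with offsets. Of the 19 AMPA receptor auxiliary and assembly genes, 6 were higher and 8 lower at 18 months under saline, and 7 higher and 6 lower under nicotine. With offsets the counts were 5 and 3 under saline and 9 and 0 under nicotine. The 3 lower ones under saline were Gsg1l (log2 fold change -0.56), Olfm3 (-0.52) and Porcn (-0.22). Olfm3 is named here after its values were seen. Under nicotine with offsets these genes were at 0.15, -0.19 and -0.11 and did not pass. From counts Gsg1l (-0.59) and Porcn (-0.48) also passed as lower under saline. Cacng8, which encodes TARP gamma-8, the main hippocampal auxiliary subunit of AMPA receptors, stood at 89.5 ± 9.53 CPM in 7-month and 180.4 ± 18.0 in 18-month saline libraries, and at 87.7 ± 12.1 and 188.5 ± 6.09 in nicotine libraries. Its log2 fold change was 1.01 and 1.10 from counts (adjusted p = 0.000119 and 3.87e-05) and 1.29 and 1.62 with offsets (adjusted p = 2.57e-05 and 5.06e-06). In Cacng8 the 7-month saline library 2, at 82.0 CPM, was with the other 7-month libraries (77.5 to 101.1) and not with those of 18 months, which were all at 164.6 CPM or more.

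The other 4 genes of that list that passed with offsets under both infusions, all higher at 18 months, were Cacng2, Cacng4, Cacng7 and Frrs1l, of which Cacng7 was named after its values were seen. Cacng2, the gene of TARP gamma-2 (stargazin), had log2 fold changes of 0.47 and 0.51 with offsets under saline and nicotine. Cacng7 had 0.46 and 0.58 with offsets, but did not pass from counts, and its CPM overlapped between the ages under both infusions (124.5, 138.3 and 133.3 at 7 months and 129.3, 134.5 and 147.9 at 18 months under nicotine). Cacng4 had 0.87 and 1.37 with offsets from a low level (3.94 ± 0.0106 CPM in 7-month nicotine libraries). These genes encode membrane partners that shape AMPA receptor gating and trafficking. In 7-month saline library 2 Cacng2 (26.3 CPM) and Cacng4 (6.52 CPM) were the highest of their age, though below every 18-month library. Frrs1l stood at 24.8 ± 1.27 CPM at 7 months and 229.0 ± 11.0 at 18 months under nicotine (log2 fold change 3.20, and 2.56 with offsets), but its 154.2 CPM in 7-month saline library 2 placed it with the genes that followed that library.

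Among kainate receptor partners C1ql2 was lower (82.0 ± 29.5 against 51.9 ± 4.28 CPM, log2 fold change -0.66, adjusted p = 0.0354) and Neto1 higher (120.2 ± 48.2 against 180.2 ± 23.3 CPM, 0.58, adjusted p = 0.0403) at 18 months under saline. None of the 4 passed under nicotine. With offsets none passed under saline, and 1 was higher (C1ql3) and 2 lower (Neto1 and Neto2) under nicotine. Neto2 is a relative of Neto1, and C1ql3, a relative of C1ql2, was named after its values were seen. Neto1 stood at 89.3, 175.7 and 95.5 CPM in the 7-month saline libraries, so that library 2 again lay with the 18-month range of 156.5 to 203.2.

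Of 20 scaffold and trafficking genes 4 were higher and 5 lower under saline, and 8 higher and 6 lower under nicotine, which is 9 and 14 of 20 and not far from the shares of all genes. Akap5, the anchor that holds kinases and calcineurin at AMPA receptors, was at 53.5 ± 15.9 CPM at 7 months and 108.7 ± 10.04 at 18 months under saline (1.02, adjusted p = 0.000702) and at 39.7 ± 3.54 and 109.4 ± 3.77 under nicotine (1.46, adjusted p = 5.45e-05). With offsets it was 0.68 and 0.83. In 7-month saline library 2 Akap5 stood at 71.73 CPM, against 46.05 and 42.71 in libraries 1 and 3 and 99.26 or more at 18 months. Rab8a, a small GTPase of membrane transport, was lower under both infusions (-0.49 and -0.51 from counts, -0.63 and -0.74 with offsets). With offsets 3 were higher and 2 lower in this list under saline, and 1 higher and 3 lower under nicotine, below the shares of all genes.

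Of 12 phosphorylation and RNA editing genes 2 were higher and 1 lower under saline, and 5 higher and 1 lower under nicotine. With offsets the counts were 2 and 1 under saline and 2 and 2 under nicotine. Ptpn5, which encodes the phosphatase STEP, was lower under both (161.0 ± 7.09 against 123.2 ± 5.79 CPM under saline, -0.39, adjusted p = 0.00209, and -0.48, adjusted p = 0.000268, under nicotine). Its values with offsets were -0.25 and -0.22 and passed. Adarb1, which encodes the enzyme that edits the Gria2 transcript, was higher under nicotine (140.4 ± 16.6 against 192.2 ± 5.86 CPM, 0.45, adjusted p = 0.00865), and -0.05 with offsets (adjusted p = 0.638). Editing itself cannot be read from gene counts.

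Of the 9 NMDA and delta subunit genes, some of which differed more between the ages than any AMPA or kainate subunit gene, 4 were higher under saline and 5 under nicotine, and none was lower. With offsets 4 were higher and 1 lower under saline, and 3 higher and 2 lower under nicotine. The lower ones were the NMDA receptor subunit genes Grin2c (-0.22 and -0.30) and, under nicotine, Grin2d (-0.43), named after their values were seen. Grin2b, an NMDA receptor subunit gene, stood at 10.2, 105.3 and 16.7 CPM in 7-month saline libraries, 8.20, 10.2 and 12.3 in 7-month nicotine libraries and 434.7 to 521.4 in the 6 libraries of 18 months. Its log2 fold change was 3.40 under saline and 5.52 under nicotine from counts, and 2.51 and 3.89 with offsets, against 0.93 at most for an AMPA or kainate subunit gene. The 7-month saline library 2 lay between the ages.

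Likeness between genes was measured by Pearson's r of log2 CPM over the 12 libraries after the mean of each age was subtracted, among 12652 genes. The libraries share depth, tissue and the length pattern above, so these are descriptions. Gria2 was most like Pum2 (r = 0.987), Ppp1r9a (0.985) and Kbtbd7 (0.982), and without the 7-month saline library 2 the same 3 values were 0.901, 0.860 and 0.860. Gria1 was most like Gpr22 (0.946), Gria3 most like Jade2 (0.982), Gria4 most like Cntn5 (0.946), Grik1 most like Itga3 (0.925), Grik2 most like Trank1 (0.978) and Grik3 most like Prkacb (0.966). Grik4 was most like Lrsam1 (0.937) and Grik5 most like Nsmf (0.985). Without that library the values for the first of each lay between 0.879 (Prkacb) and 0.974 (Nsmf).

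Among the subunit genes themselves, Gria2 and Gria3 had r = 0.906 over 12 libraries and 0.486 over the 11 without that library. Gria2 and Grik2 went from 0.818 to 0.007 and Gria2 and Grik3 from 0.719 to -0.61. Gria1 and Gria2 (0.710 and 0.821) and Grik4 and Grik5 (0.498 and 0.654) had positive values both ways, and Grik3 and Grik5 (-0.82 and -0.64) negative ones.

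The genes lie apart in the genome, on GRCm38 in the GENCODE M21 annotation: Gria1 on chromosome 11 (57011387 to 57330244), Gria2 on 3 (80681450 to 80802835), Gria3 on X (41400854 to 41678601), Gria4 on 9 (4417896 to 4796234), Grik1 on 16 (87895900 to 88290265), Grik2 on 10 (49094833 to 49788766), Grik3 on 4 (125490700 to 125714173), Grik4 on 9 (42518135 to 42944493) and Grik5 on 7 (25009849 to 25072346). No member shared a stretch of 200 nt at 95% identity with another gene. The closest pair was Gria3 and Gria4, at 88.7% over 239 nt. Genes that overlap a member lie on the same strand and are small RNAs, pseudogenes or intronic transcripts, none of which has a row of its own in both tables.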

How the data were processed

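RNA of the hippocampus was measured in 12 libraries. The authors deposited raw counts per gene, 1 table per age (44788 genes at 7 and 44786 at 18 months). TopHat, in a version that is not stated, and GRCm38 are named in the submitters' processing notes. How genes were counted, with which annotation and whether by strand, is not given in the sources used here, so antisense reads may be included. A kit for small RNA is named in the labels' protocol, although the deposited counts cover mRNA.

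The 44760 genes in both tables were joined for comparisons that hold both ages. Tests used edgeR 4.0.16 in R 4.3.3 (quasi-likelihood test after TMM scaling and filterByExpr, p-values adjusted by Benjamini-Hochberg over all tested genes, threshold 0.05). Nicotine within an age was fitted on the 6 libraries of that age, and the other comparisons on 12 libraries with 4 group means. All 9 members passed the filter in every comparison. SE is the absolute log2 fold change over the square root of F, and intervals are 95%. CPM use TMM factors over 12 libraries. Transcript lengths (30971 genes) are those of GENCODE M21. An exact permutation test of 3 against 3 libraries cannot go below p = 0.1, so none is given. The fit was tested on simulated counts with changed genes. Of 2-fold changes it recovered 74.5% at 7 months (17572 genes), 79.6% at 18 months (18173 genes) and 24.5% for the difference between ages (19171 genes). The simulation used the same fixed dispersion in every comparison and held no library that stood apart. The dispersion of the data was 0.0417 at 7 months and 0.00956 at 18 months. These rates are therefore not the power of the data at each age.

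The members, the partner and marker lists and the comparisons were chosen with earlier results of these data known. Of each partner list up to 4 genes that passed, by smallest p, could be named, or the 2 with the smallest p where none passed. Shisa8 and Epb41l1 were not found under those names. Alternatives were RLE scaling, no filter, DESeq2 1.42.0, a replicate block, length and GC offsets, all 12 libraries in 1 fit, both first 7-month libraries left out, and each library left out in turn. Chosen after seeing the data were the fit of genes with a length without offsets, and leaving out the 7-month saline library 2 with nicotine library 1, or both 7-month libraries numbered 3. Figures were drawn with matplotlib 3.10.9 in Python 3.11.15. Counting intervals and depth cover counting error only.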

Additional observations from a re-analysis of the deposited data

Results flagged for a closer look

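Gria3 was set apart because its nicotine libraries lay wholly below saline at 7 months and wholly above saline at 18 months. Groups did not overlap for 17.4% of tested genes at 7 months and for 11.8% at 18 months. The share of genes with gaps of opposite direction at both ages was not counted. The test that follows uses the same values that set the gene apart. The difference between both nicotine effects was 0.32 on the log2 scale (edgeR, SE 0.13, unadjusted p = 0.0331, adjusted p = 0.623), so it did not pass the test over all genes. It was 0.18 without the 7-month saline library 2 and 0.08 with length and GC offsets (adjusted p = 0.817).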

How the results depend on the processing

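No subunit gene was called for nicotine in any of the 4 nicotine comparisons under any alternative run. The direction of several small values did turn. At 7 months, length and GC offsets gave Gria1 0.076, Gria2 0.094 and Grik2 0.12. Leaving out the 7-month saline library 2 and nicotine library 1 gave Gria1 0.061, Gria2 0.051, Gria4 0.026 and Grik2 0.055. With 1 library left out at a time Gria1 ranged from -0.19 to 0.0047, Gria2 from -0.50 to 0.022, Gria4 from -0.51 to 0.0295, Grik3 from -0.63 to 0.020, Grik2 from -0.35 to -0.023 and Gria3 from -0.31 to -0.10, and at 18 months Grik3 from -9.6e-05 to 0.19. For the difference between ages, offsets gave Gria2 -0.094, Gria4 -0.15 and Grik2 -0.22, and leaving out those same libraries gave Gria2 -0.0021, Gria4 -0.20 and Grik2 -0.11. With 1 library left out Gria4 ranged from -0.21 to 0.30 and Grik2 from -0.032 to 0.25. Grik4 kept its direction at each age and in the difference. Its difference was -0.65 with offsets (edgeR, adjusted p = 0.342) and -0.63 to -0.43 with 1 library left out. Without 7-month saline library 2 and nicotine library 1 it was -0.72 (adjusted p = 0.075). The 7-month value of Grik4 was then 0.46 (adjusted p = 0.175), against 0.40 with offsets and 0.18 to 0.38 with 1 library left out.

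For age under saline the 2 members called became 3 with DESeq2 (Gria1 as well, adjusted p = 0.0296), 1 with no filter, 0 with offsets, 0 without both first 7-month libraries, 6 without the 7-month saline library 2 and nicotine library 1, 0 without both 7-month libraries numbered 3, and 0 to 6 with 1 library left out. Of all tested genes, 8836 of 19171 passed with DESeq2, 9158 of 33590 with no filter and 5593 of 16200 with offsets. Without those pairs of libraries, in the same order, 5852 of 19319, 11969 of 19332 and 5867 of 19353 passed. With 1 library left out, 6251 of 19552 to 11793 of 19539 passed. Among the members, offsets gave Gria1 -0.025, Gria2 -0.025, Gria4 -0.15, Grik2 -0.23 and Grik3 -0.062. Gria4 was -0.20 without both libraries numbered 3 and ranged from -0.19 to 0.35 with 1 library left out. For age under nicotine offsets gave 3 calls in place of 6, and gave Gria1 -0.022, Gria2 -0.12, Gria4 -0.30 and Grik2 -0.45. The cause was not tested. Among genes with a length but without offsets, 3 and 6 members were called.

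The replicate block called 0 members for nicotine and 2 and 6 for age, as without it. Same-number libraries had correlations of departures from their group means of -0.21 to 0.12, so the numbers were not taken as pairs. The highest, 0.125, was that of both 7-month libraries numbered 1, whose labels carry another prefix than the other 4 libraries of that age. Over all genes, DESeq2 called 81, 57, 80 and 37 genes in the 4 nicotine comparisons against 2, 8, 7 and 1, and calls for age under saline ran from 5593 (offsets) to 11969 (without the 7-month saline library 2 and nicotine library 1) against 8844.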
